A study of Rattus norvegicus with 4 samples.

Results

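The ribosome biogenesis and nucleolar genes were described in cultured hippocampal progenitor cells of Fisher 344 rats. The members were 47 listed symbols for nucleolar assembly factors, small nucleolar ribonucleoproteins (snoRNPs), RNase P and RNase MRP, RNA polymerase I and proteins that bind 5S RNA, and 46 of them had a probe set of their own among the 14217 named genes of the array. Npm1 (nucleophosmin) was skipped, because its 3 probe sets are annotated to a pseudogene as well. Each of 4 groups was 1 Affymetrix array: cells given KHS101, a compound examined for inducing neuronal differentiation, at 5 uM or at 1.7 uM, cells given 1 uM retinoic acid and forskolin (RA/forskolin), and cells given the solvent DMSO as negative control. RA/forskolin was the positive control, for which the series' design names retinoic acid alone. Retinoic acid acts through nuclear receptors, and forskolin activates adenylyl cyclase; its concentration was not stated in the labels. Cells of all groups were early-passage progenitors from hippocampus, plated in medium with N2 supplement and treated for 4 days, with DMSO at 0.1%, per the labels' protocols, which cover several experiments. The age and number of the animals are not given in the sources used here.

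Ribosomes are assembled in the nucleolus, where RNA polymerase I transcribes the large precursor of the ribosomal RNAs, snoRNPs guide its chemical modification, and assembly factors cut and fold it together with ribosomal proteins. The 5S RNA is made outside the nucleolus by RNA polymerase III and joins the large subunit bound to Rpl5 and Rpl11. In neural progenitors, as in other dividing cells, the pathway serves growth, and several of its genes are textbook targets of the transcription factor Myc.

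The values are log2 levels. Differences of 2-fold or more, which is 1 on the log2 scale, were called, and a level under log2 = 5 was set to that floor as lacking specific signal. All 46 members were above the floor on all 4 arrays. With 1 array per group no test was possible, and the differences have no replicate check. The sole repeat measurement was that of other probe sets for the same gene, which share the RNA and the array: over 2889 such probe sets of all genes, the 95th percentile of their disagreement was 0.73 for KHS101 5 uM against DMSO, 0.58 for 1.7 uM and 0.63 for RA/forskolin. Fewer cells of a type and less RNA per cell cannot be told apart in such samples.

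Of the arrays as a whole, between 8389 and 8471 genes lay above the floor. Sox2, Nes, Vim, Notch1, Fabp7, Hes1 and Slc1a3, markers of neural progenitors, were above it on all arrays, whereas Pax6 and Sox1 lay under it. Of the 7 above it, 3 were higher than in DMSO with KHS101 1.7 uM, 2 with 5 uM and 4 with RA/forskolin. Their log2 differences ran from -1.21 (Fabp7) to 1.53 (Hes1), -2.11 (Fabp7) to 1.34 (Hes1) and -1.11 (Vim) to 0.50 (Fabp7). The summed linear level of the progenitor list was 70084 in DMSO, 56006 with KHS101 1.7 uM, 41901 with 5 uM and 64796 with RA/forskolin. Of 6 immature neuron markers 3 were above the floor, with sums of 6304, 7483, 7093 and 8272 in that order. With RA/forskolin their median log2 difference was 0.32, and Tubb3 was 2.20-fold higher than in DMSO. Elavl4 was below DMSO on each treated array, at -0.16 with KHS101 1.7 uM, -0.36 with 5 uM and -0.12 with RA/forskolin. Of 6 astrocyte markers S100b alone was above the floor. It was 2.08-fold higher with RA/forskolin, with sums of the list of 9147, 11104, 10307 and 18968. Of 6 oligodendrocyte markers 5 were above it in DMSO, among them Olig1, Olig2, Sox10 and Mbp, and their summed linear level was 47014 in DMSO, 30540 with KHS101 1.7 uM, 20809 with KHS101 5 uM and 63199 with RA/forskolin. None of 6 microglial and none of 6 fibroblast markers was above the floor on any array; of 4 endothelial markers Kdr alone was, on the RA/forskolin array. The 24 bacterial poly(A) control probe sets were higher than in DMSO on each treated array, by a median of 0.21 with KHS101 5 uM, 0.55 with 1.7 uM and 0.38 with RA/forskolin. Scaling the arrays to them, an alternative chosen after the data were seen, shifted the median of all genes to -0.20, -0.55 and -0.41, so the differences below are relative to the bulk of genes. That scaling lowers each difference from DMSO by those control medians, which turns the sign of KHS101 differences that are positive and smaller than them. The median of the members minus that of all measured genes was 0.30, 0.04 and -0.75 as deposited, and 0.30, 0.03 and -0.75 with that scaling.

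Promoter sequences are shown for the members that passed 2-fold and hold either of a pair of short words, since all members lay on 1 side of DMSO with RA/forskolin. RefSeq promoter entries of the rat build GRCr8 matched 40 of the 46 members; Pop1, Pop4, Pop7, Rpp30, Wdr43 and Bop1 had none. In the 250 bases before the start, CCGGAAG, the core bound by ETS factors, was found on either strand in 13 of 40 members (32.5%), in 1267 of 6994 genes above the floor on all arrays (18.1%) and in 1516 of 11733 genes with an entry (12.9%). CACGTG, the E-box word that Myc and its partner Max bind, was in 6 of 40 (15.0%), against 8.94% and 7.82%. Among 140 further genes of the pathway with an entry, CCGGAAG was in 55 (39.3%) and CACGTG in 23 (16.4%). A palindromic word of the factor ZBTB33 was in 1 member, Rpp38, and one of NRF1 in 0, against 1.00% and 2.12% of the genes above the floor. CCGGAAG and its reverse complement can share the bases CCGG, and neither can overlap CACGTG. The median GC content of the 250 bases before the start was 57.2% in members and 61.2% in genes above the floor. The sequences run 5′ to 3′ up to the base before the start, with CCGGAAG or its reverse complement CTTCCGG and CACGTG in capitals. They lie at chr4:134861946-134862195 (minus strand) for Shq1, chrX:157751401-157751650 (plus strand) for Dkc1, chr10:36377770-36378019 (plus strand) for Nhp2, chr1:254870109-254870358 (plus strand) for Nolc1, chr5:64074873-64075122 (plus strand) for Polr1e and chr9:55394982-55395231 (plus strand) for Wdr75.
Shq1: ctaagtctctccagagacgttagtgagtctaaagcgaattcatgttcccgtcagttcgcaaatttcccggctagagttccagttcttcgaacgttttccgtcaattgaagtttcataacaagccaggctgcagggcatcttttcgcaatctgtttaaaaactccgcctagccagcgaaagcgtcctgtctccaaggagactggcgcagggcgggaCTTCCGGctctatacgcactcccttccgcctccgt
Dkc1: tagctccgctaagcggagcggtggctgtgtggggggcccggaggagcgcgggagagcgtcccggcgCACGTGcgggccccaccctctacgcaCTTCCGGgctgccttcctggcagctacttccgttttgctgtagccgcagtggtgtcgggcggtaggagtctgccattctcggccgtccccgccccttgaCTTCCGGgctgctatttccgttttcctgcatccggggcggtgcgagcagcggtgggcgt
Nhp2: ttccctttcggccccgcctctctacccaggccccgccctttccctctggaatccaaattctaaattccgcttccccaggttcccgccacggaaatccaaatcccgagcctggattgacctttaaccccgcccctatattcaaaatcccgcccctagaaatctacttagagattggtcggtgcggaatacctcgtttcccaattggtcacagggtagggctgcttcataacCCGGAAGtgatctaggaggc
Nolc1: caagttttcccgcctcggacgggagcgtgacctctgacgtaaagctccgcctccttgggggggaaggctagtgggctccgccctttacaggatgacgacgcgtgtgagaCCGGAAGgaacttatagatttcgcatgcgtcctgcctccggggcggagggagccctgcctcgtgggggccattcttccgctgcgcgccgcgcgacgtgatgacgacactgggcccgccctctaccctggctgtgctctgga
Polr1e: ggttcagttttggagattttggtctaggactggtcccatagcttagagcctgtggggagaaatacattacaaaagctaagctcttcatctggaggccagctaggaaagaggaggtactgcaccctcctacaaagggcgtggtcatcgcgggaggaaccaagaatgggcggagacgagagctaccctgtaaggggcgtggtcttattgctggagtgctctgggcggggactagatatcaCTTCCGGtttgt
Wdr75: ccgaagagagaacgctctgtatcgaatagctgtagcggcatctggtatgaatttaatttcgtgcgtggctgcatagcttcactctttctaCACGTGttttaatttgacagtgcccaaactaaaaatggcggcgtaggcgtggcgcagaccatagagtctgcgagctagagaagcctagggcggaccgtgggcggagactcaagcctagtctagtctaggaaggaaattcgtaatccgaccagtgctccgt
In Shq1 the word CCGGAAG begins 35 bases before the start, in Nhp2 20 and in Polr1e 12, while Dkc1 holds it at 158 and 59 bases and CACGTG at 184. Wdr75 holds CACGTG at 160 bases and no CCGGAAG. With RA/forskolin the median log2 difference from DMSO was -0.86 for the 13 members with CCGGAAG and -0.70 for the 27 without, and -0.80 for the 6 with CACGTG and -0.76 for the 34 without. With KHS101 at 5 uM these medians were 0.30, 0.34, 0.35 and 0.31. Past 2-fold, 5 of the 13 members with CCGGAAG were lower with RA/forskolin and 4 of the 27 without. For CACGTG these counts were 1 of 6 and 8 of 34. Of all measured genes 3.15% were lower past 2-fold there, and genes outside the members were not split by word. The differences between members with and without a word were not tested.

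The positive control was compared with DMSO first. With RA/forskolin all 46 members were lower than in DMSO, with a median log2 difference of -0.78 and a range from -2.14 (Pop1) to -0.02 (Polr1d). Among all 8535 measured genes 52.5% were lower by any amount, and the median was -0.03. Past 2-fold, 11 members (23.9%) were lower and 0 higher, against 3.15% and 4.34% of all measured genes. With the arrays scaled to the poly(A) controls 29 members (63.0%) were lower and 0 higher, against 10.9% and 2.18% of all genes. The 11 were Pop1, Shq1, Rrp9, Rrp12, Nhp2, Dkc1, Tcof1, Polr1b, Nolc1, Wdr43 and Polr1e. A difference larger than the 95th percentile of probe set disagreement was seen in 28 members (60.9%), all lower, against 10.7% of all genes lower and 10.2% higher. The members just outside 2-fold were Heatr1, Bop1 and Gnl3, each at -0.96.

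With KHS101 the members' median differed less from DMSO and was positive as deposited. At 5 uM 36 of 46 members were higher than in DMSO by any amount (78.3%, against 50.2% of 8543 measured genes), with a median of 0.30 against 0.00 for all genes. Only Wdr75 passed 2-fold, and 0 members were lower past it, against 6.16% and 8.1% of all measured genes; scaled to the poly(A) controls 1 member (2.17%) was higher and 1 lower, against 4.49% and 11.1%. By the probe set yardstick 5 members were higher (10.9%) and 1 was lower (2.17%), against 10.7% and 12.7% of all genes, so single members exceeded it about as often as other genes in the upward direction. At 1.7 uM 25 members were higher and 21 lower by any amount (all genes, 49% and 51%), the median was 0.03, and 0 members passed 2-fold in either direction, against 4.36% and 4.27% of all measured genes; with that scaling 0 were higher and 4 (8.70%) lower, against 1.79% and 15.0%. By the probe set yardstick 0 members were higher and 1, Rpp30, was lower, against 10.7% and 10.9% of all genes. With the arrays scaled to the poly(A) controls the median was 0.095 at 5 uM and -0.52 at 1.7 uM, and 26 and 0 members were above DMSO, so the sign at 1.7 uM depended on the scaling.

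**Figure D1:**
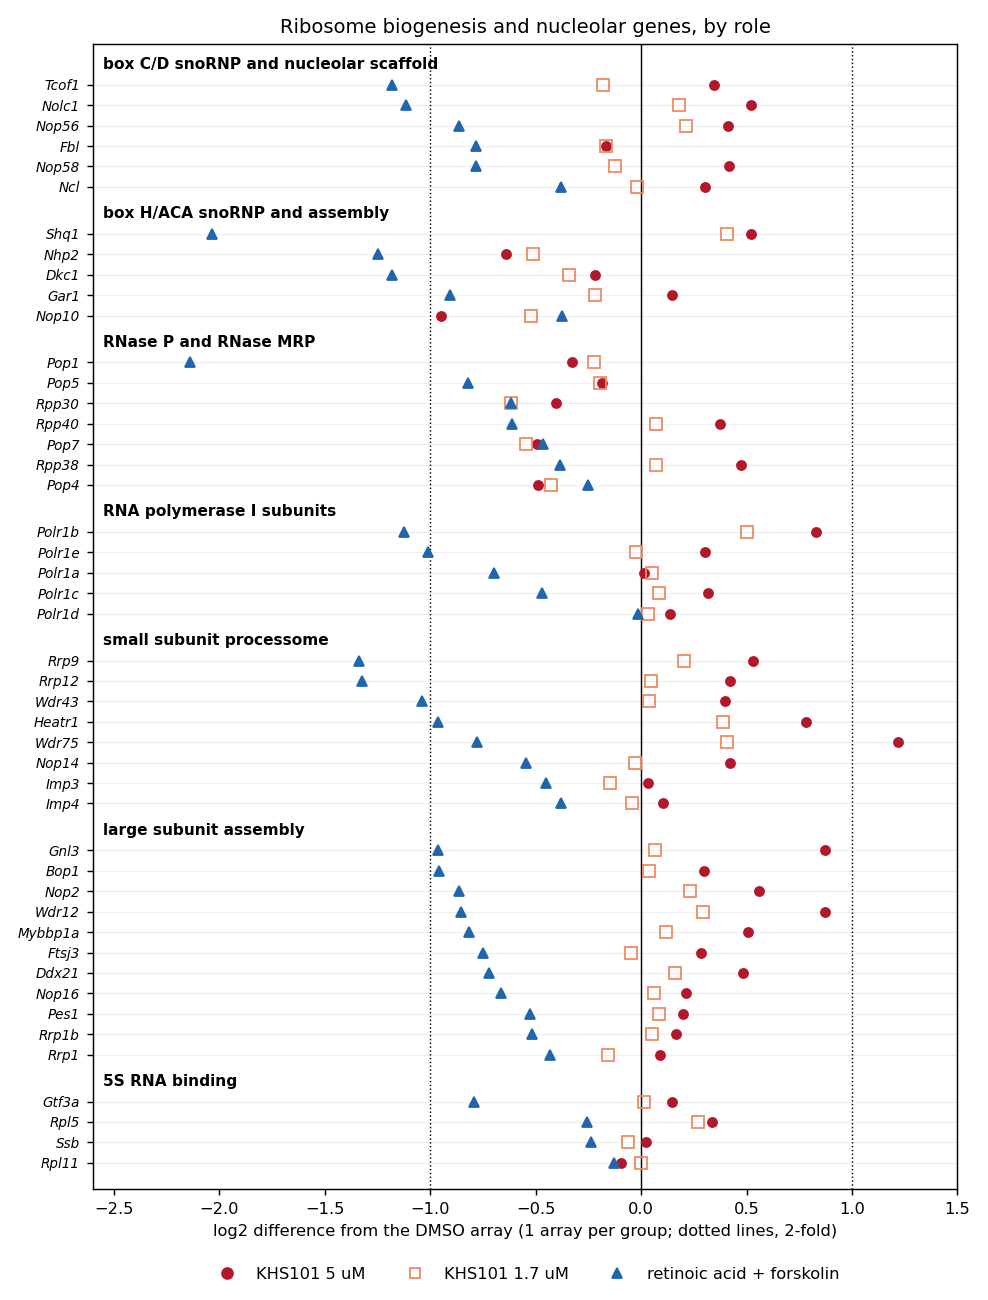
Log2 difference of each of the 46 members from the DMSO array (x axis; 1 array per group, no error bars possible), grouped by role, for KHS101 5 uM (circles), KHS101 1.7 uM (open squares) and RA/forskolin (triangles). The triangles all lie left of 0, 11 of them past the dotted 2-fold line, while Wdr75 is the single circle past 2-fold on the right.

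**Figure D2:**
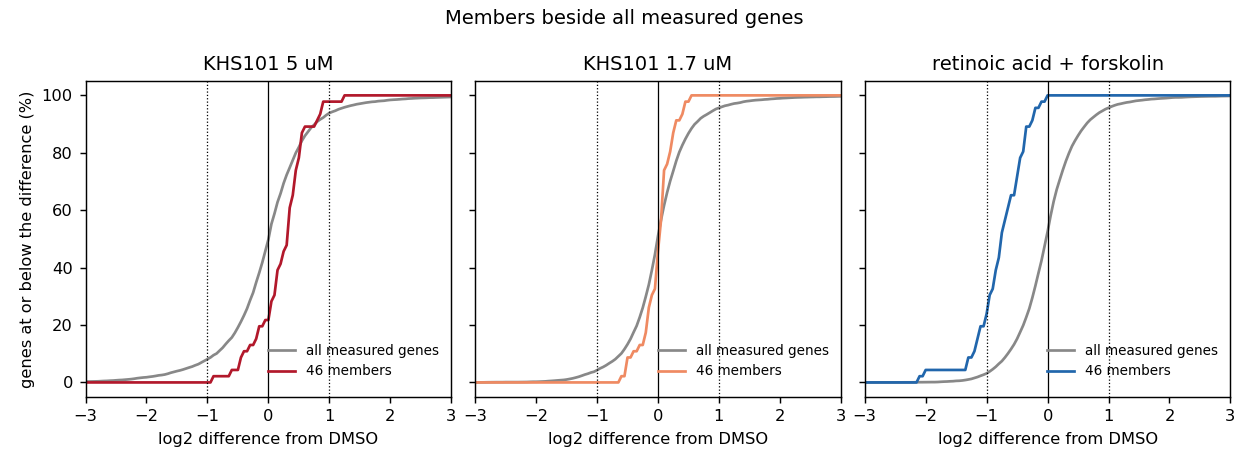
Share of genes (y axis, %) at or below each log2 difference from DMSO (x axis) for the 46 members (coloured) and all measured genes (grey), 1 panel per treatment. The member curve lies left of the grey one with RA/forskolin (medians -0.78 and -0.03), right of it with KHS101 5 uM (0.30 and 0.00) and near it in the middle with 1.7 uM (0.03 and -0.01).

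The box C/D snoRNP methylates ribosomal RNA. Fibrillarin (Fbl), its methyltransferase, had log2 levels of 13.74 in DMSO, 13.58 with KHS101 1.7 uM, 13.57 with KHS101 5 uM and 12.96 with RA/forskolin. It was 1.72-fold lower with RA/forskolin and 1.12-fold lower with either KHS101 concentration. Its partners Nop56 and Nop58 were 1.82-fold and 1.72-fold lower with RA/forskolin, and both were 1.33-fold higher with KHS101 5 uM; the other probe set of Nop56 differed by -0.98 and 0.78. Nucleolin (Ncl), an abundant nucleolar RNA-binding protein, varied least in this group with RA/forskolin, at 14.35 in DMSO, 14.33 with KHS101 1.7 uM, 14.66 with 5 uM and 13.97 with RA/forskolin.

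Nolc1, a chaperone of snoRNPs in the nucleolus and Cajal bodies, measured 11.53 in DMSO, 11.71 with KHS101 1.7 uM, 12.05 with KHS101 5 uM and 10.42 with RA/forskolin. It was 2.16-fold lower with RA/forskolin, and its other probe sets above the floor differed by -0.78 and -1.31 there. Tcof1 (treacle), which ties RNA polymerase I to its upstream factors, measured 7.27, 7.08, 7.61 and 6.08 in the same order. It was 2.27-fold lower with RA/forskolin and 1.27-fold higher with KHS101 5 uM; none of its other probe sets was above the floor on all arrays. In this group of 6 measured genes the RA/forskolin array was the lowest for each gene, and KHS101 5 uM was the highest for all but Fbl.

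The box H/ACA snoRNP converts uridines of ribosomal RNA to pseudouridine, and its core proteins also belong to telomerase. Dkc1, the pseudouridine synthase, measured 11.01 in DMSO, 10.66 with KHS101 1.7 uM, 10.79 with KHS101 5 uM and 9.82 with RA/forskolin, which is 2.27-fold lower in the last. Nhp2, a core protein, measured 13.14, 12.63, 12.50 and 11.89 in that order, so it was below DMSO on each treated array: 1.43-fold at 1.7 uM, 1.56-fold at 5 uM and 2.38-fold with RA/forskolin. Shq1, the chaperone that holds Dkc1 before the particle forms, measured 7.82, 8.23, 8.34 and 5.79. Its difference of -2.03 with RA/forskolin, 4.09-fold lower, was the largest in the group, and it was 1.43-fold higher with KHS101 5 uM. The RA/forskolin level of Shq1 lay less than 1 above the floor, and Shq1 had 1 probe set.

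Nop10, the smallest core protein of the particle, did not share this order. It measured 13.36 in DMSO, 12.84 with KHS101 1.7 uM, 12.41 with KHS101 5 uM and 12.98 with RA/forskolin. It was 1.93-fold lower with KHS101 5 uM, the lowest of all members in that comparison, and 1.30-fold lower with RA/forskolin. Gar1, the remaining core protein, measured 12.29, 12.07, 12.43 and 11.38 in the same order. Over these 5 genes the median difference was -1.18 with RA/forskolin, -0.22 with KHS101 5 uM and -0.34 with 1.7 uM, so the KHS101 medians lay below 0 here.

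RNase P cuts the leader from transfer RNA precursors, and RNase MRP, which shares most of its proteins, cuts the ribosomal RNA precursor. Pop1, their largest shared protein, measured 8.00 in DMSO, 7.78 with KHS101 1.7 uM, 7.68 with KHS101 5 uM and 5.87 with RA/forskolin. That is 4.40-fold lower in the last, the largest difference of any member, while KHS101 was 1.17-fold and 1.25-fold lower. The RA/forskolin level of Pop1 lay less than 1 above the floor, and the other probe set of Pop1 was under the floor on all 4 arrays. Pop4, another shared subunit, measured 10.67, 10.24, 10.19 and 10.42 in the same order as Pop1. Pop7, which pairs with another subunit to bind the RNA, measured 11.11, 10.57, 10.62 and 10.65. With KHS101 5 uM Pop4 and Pop7 were 1.40-fold and 1.41-fold lower, the latter the largest difference of the group there, and with RA/forskolin they were 1.19-fold and 1.38-fold lower.

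Rpp30 was 1.32-fold lower with KHS101 5 uM and 1.53-fold lower both with 1.7 uM and with RA/forskolin. By contrast Rpp38, at 8.74 in DMSO, 8.81 with KHS101 1.7 uM, 9.22 with 5 uM and 8.36 with RA/forskolin, and Rpp40 were 1.39-fold and 1.30-fold higher with KHS101 5 uM and 1.30-fold and 1.53-fold lower with RA/forskolin. Pop5 measured 9.34 in DMSO, 9.15 and 9.16 with KHS101 at 1.7 and 5 uM and 8.52 with RA/forskolin, but its other probe set was 0.13 above DMSO at 5 uM. Of the 7 genes, 5 were below DMSO at both KHS101 concentrations, the most of any role group, and the group median was -0.33 at 5 uM and -0.22 at 1.7 uM.

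RNA polymerase I makes the precursor of the large ribosomal RNAs. Polr1a, its largest subunit, measured 7.86 in DMSO, 7.91 with KHS101 1.7 uM, 7.87 with KHS101 5 uM and 7.16 with RA/forskolin, and thus lay 1.62-fold lower in the last alone. Polr1b, the second largest subunit, measured 9.57, 10.07, 10.40 and 8.45 in that order. It was 2.18-fold lower with RA/forskolin, and 1.78-fold and 1.42-fold higher with KHS101 at 5 and 1.7 uM. Polr1e, a subunit particular to this polymerase, measured 10.60, 10.58, 10.90 and 9.59, or 2.01-fold lower with RA/forskolin.

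Polr1c, shared with RNA polymerase III, was 1.38-fold lower with RA/forskolin. Polr1d, also shared, measured 12.64 in DMSO, 12.68 with KHS101 1.7 uM, 12.78 with KHS101 5 uM and 12.63 with RA/forskolin. Its other probe set disagreed: it differed from DMSO by -0.60 with KHS101 5 uM, where the one used differed by 0.14, and by -0.37 with RA/forskolin. The direction for Polr1d with KHS101 is therefore not settled by these probe sets.

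The small subunit processome is the particle in which the 18S part of the precursor folds and is first cut. Rrp9, a protein of its U3 snoRNP, measured 8.87 in DMSO, 9.08 with KHS101 1.7 uM, 9.41 with KHS101 5 uM and 7.54 with RA/forskolin, which is 2.53-fold lower in the last. Rrp12, a factor of late small subunit maturation and export, measured 9.20, 9.24, 9.62 and 7.88 in that order, 2.50-fold lower with RA/forskolin, with its other probe sets at -1.19 and -0.77. Wdr43, one of the first proteins on the precursor, measured 9.97, 10.01, 10.37 and 8.93, or 2.05-fold lower, and its other probe set differed by -1.05.

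Wdr75, which joins the same early complex, was the sole member past 2-fold with KHS101. It measured 8.93 in DMSO, 9.34 with KHS101 1.7 uM, 10.15 with KHS101 5 uM and 8.15 with RA/forskolin. The level at 5 uM was 2.33-fold above DMSO and 1.76-fold above 1.7 uM, and the other probe set of Wdr75 was 1.06 above DMSO at 5 uM and 0.57 below it with RA/forskolin. Heatr1, a large scaffold of that complex, was 1.72-fold higher with KHS101 5 uM and 1.95-fold lower with RA/forskolin. Imp3, a protein of the U3 snoRNP, measured 10.59 in DMSO, 10.44 with KHS101 1.7 uM, 10.62 with 5 uM and 10.14 with RA/forskolin, and its partner Imp4 10.01, 9.97, 10.11 and 9.63. These and Nop14 had the smallest differences of the group with RA/forskolin, between 1.30-fold and 1.46-fold lower. All 8 genes of the group were above DMSO at 5 uM (median 0.42) and below it with RA/forskolin (median -0.87).

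Large subunit factors had the narrowest range with RA/forskolin among the groups with over 5 genes: all 11 were lower, between -0.96 and -0.43. Past 2-fold 0 were lower, against 3.15% of all measured genes, so that count does not set the group apart from all genes. Pes1, Bop1 and Wdr12 form 1 complex that matures the large subunit RNAs. In that comparison they were 1.44-fold, 1.94-fold and 1.81-fold lower, and with KHS101 5 uM they were 1.15-fold, 1.23-fold and 1.83-fold higher. Gnl3 (nucleostemin), a GTPase abundant in stem cells, measured 11.84 in DMSO, 11.91 with KHS101 1.7 uM, 12.72 with KHS101 5 uM and 10.88 with RA/forskolin. It was 1.83-fold higher at 5 uM, 1.05-fold higher at 1.7 uM and 1.95-fold lower with RA/forskolin.

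Nop2 and Ftsj3, which methylate ribosomal RNA, were 1.82-fold and 1.68-fold lower with RA/forskolin, and Ddx21, an RNA helicase, 1.65-fold. Mybbp1a, a nucleolar protein that binds Myb, was 1.76-fold lower, Nop16 1.58-fold, and Rrp1b 1.43-fold. Rrp1 measured 10.13 in DMSO, 9.97 with KHS101 1.7 uM, 10.22 with 5 uM and 9.69 with RA/forskolin, the smallest difference of the group at 1.35-fold lower. Rrp1b and Ddx21 each had another probe set past 2-fold there, at -1.30 and -1.14, while other probe sets of Nolc1 and Rrp12 were within 2-fold, at -0.78 and -0.77. With the mean of all probe sets of a gene 9 members were lower past 2-fold, in place of 11. Nolc1 and Tcof1 dropped out, and that mean includes their probe sets under the floor on some or all arrays. Over the 10 members with more than 1 probe set above the floor, the 13 other probe sets lay on the same side of DMSO as the one used in 13 cases with RA/forskolin and in 10 with each KHS101 concentration. At 5 uM all 11 large subunit genes were above DMSO, from 0.09 for Rrp1 to 0.87 for Gnl3 and Wdr12.

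**Figure D3:**
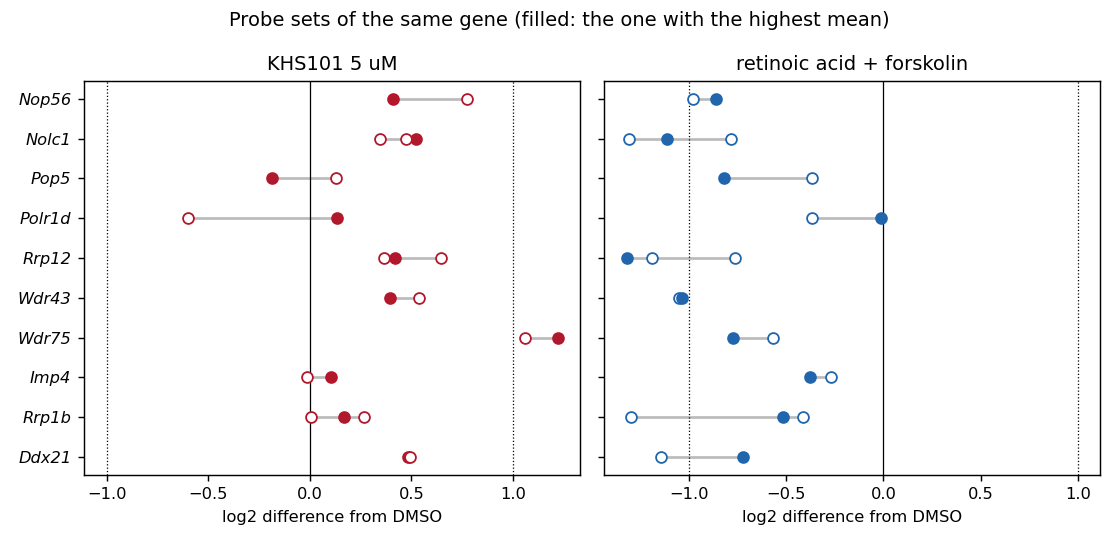
Log2 difference from DMSO (x axis) for each probe set above the floor of the 10 members with more than 1 such probe set, for KHS101 5 uM (left) and RA/forskolin (right); filled points are the probe sets with the highest mean, open points the others, and lines join those of a gene. All points on the right panel lie below 0, and the widest gap on the left is that of Polr1d, 0.73.

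Among the proteins that bind 5S RNA, Rpl5, Rpl11 and Ssb differed little from DMSO. Gtf3a was lower with RA/forskolin by 0.79, more than the probe set yardstick of 0.63. Rpl5 measured 14.77 in DMSO, 15.04 with KHS101 1.7 uM, 15.11 with KHS101 5 uM and 14.52 with RA/forskolin, a 1.26-fold excess at 5 uM and a 1.20-fold deficit with RA/forskolin. Rpl11, its partner on the 5S RNA, measured 14.58, 14.58, 14.48 and 14.45 in the same order and stayed within 1.09-fold of DMSO. Gtf3a, the factor that binds both the 5S gene and its RNA, measured 10.76, 10.77, 10.90 and 9.96, or 1.73-fold lower with RA/forskolin and within 1.11-fold of DMSO with KHS101. Ssb, the La protein that binds new transcripts of RNA polymerase III, measured 12.73, 12.67, 12.75 and 12.49. The group median was -0.25 with RA/forskolin, 0.08 with KHS101 5 uM and 0.01 with 1.7 uM.

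The control probe set for 5S ribosomal RNA itself behaved differently from these genes. It measured 7.89 with KHS101 5 uM and 5.27 with KHS101 1.7 uM, and lay under the floor at 2.81 in DMSO and 2.54 with RA/forskolin. Against the floor it was at least 7.40-fold higher at 5 uM and at least 1.21-fold higher at 1.7 uM, and 6.14-fold higher at 5 uM than at 1.7 uM. It was the single one of 57 control probe sets that was above the floor with KHS101 5 uM and not in DMSO. Of these 57, 24 are bacterial poly(A) controls and 18 hybridisation controls, and those under the floor in DMSO were not counted. The count therefore does not show how rare such a signal is. Amplification primes on poly(A) tails, which 5S RNA normally lacks, so this value is no measure of the total 5S RNA of the cells. Beside it, the beta-actin controls at the 3′ end exceeded those at the 5′ end by a log2 value of 1.26 in DMSO, 1.37 with RA/forskolin, 1.40 with KHS101 1.7 uM and 1.54 with 5 uM, and the hexokinase controls did so by 0.69, 0.66, 0.80 and 0.96. For GAPDH, a further such pair, the 3′ minus 5′ value was -0.16, -0.12, -0.14 and -0.11 in the same order; the part of these values in the 5S value was not tested.

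**Figure D4:**
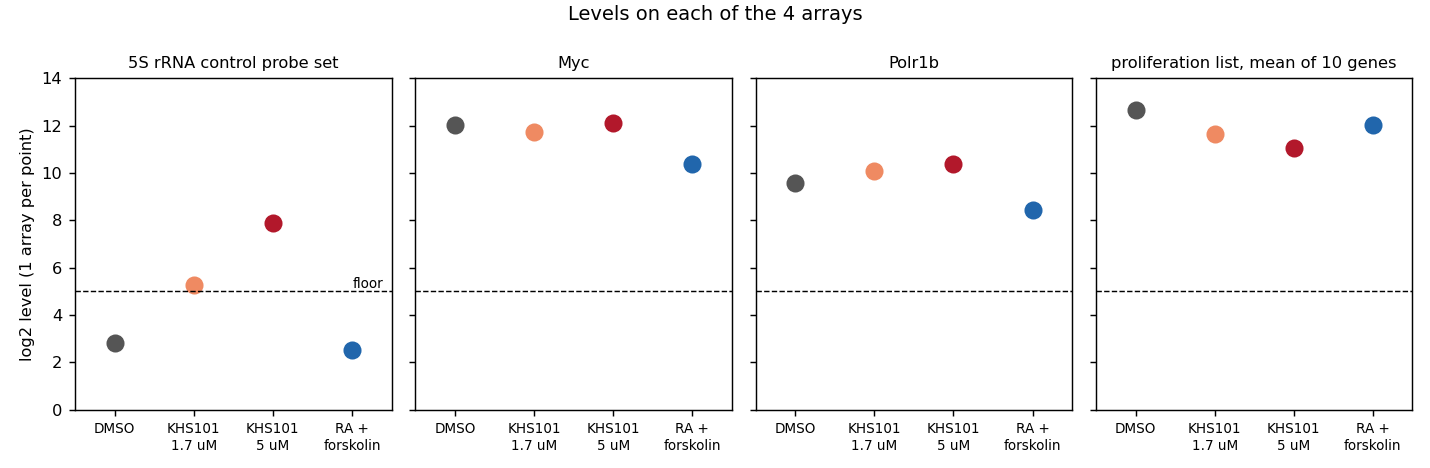
Log2 level (y axis, 1 array per point) of the 5S rRNA control probe set, Myc, Polr1b and the mean of the 10 proliferation genes on each of the 4 arrays; the dashed line is the floor of 5. The 5S signal is above the floor with KHS101 alone, Myc and Polr1b are lowest with RA/forskolin, and the proliferation mean is lowest with KHS101 5 uM.

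Across the 4 arrays, as deposited, most members had the same highest and lowest array. The RA/forskolin array was the lowest for 43 of 46 members (93.5%), against 32.3% of the 8216 genes above the floor on all arrays; the exceptions were Nop10, Pop4 and Pop7. KHS101 5 uM was the highest for 35 members (76.1%, against 31.5%), and for the same 35 RA/forskolin was the lowest, an arrangement seen in 18.8% of those genes. DMSO was the highest for 10 members (21.7%, against 26.1%): Fbl, Dkc1, Nhp2, Nop10, Pop1, Pop4, Pop5, Pop7, Rpp30 and Rpl11. The full order of KHS101 5 uM, KHS101 1.7 uM, DMSO and RA/forskolin, from high to low, was seen in 24 members (52.2%) and in 13.5% of those genes. These counts depend on the scaling between arrays: scaled to the poly(A) controls, RA/forskolin was the lowest for 40 members (87.0%, against 33.6% of 8067 genes), KHS101 5 uM the highest for 26 (56.5%, against 29.9%), DMSO the highest for 20 (43.5%, against 56.5%), and the full order was seen in 0 members, against 5.57% of those genes. As deposited, KHS101 1.7 uM exceeded DMSO by more than the 95th percentile of probe set disagreement in 0 members, against 10.7% of all genes. Rpp30, which does not have the full order, was lower there by more than it. For KHS101 5 uM above 1.7 uM this held in 3 of 46 members (6.52%, against 3.78%).

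The KHS101 concentrations were compared with each other to see whether members followed the dose. At 5 uM 39 of 46 members were above their 1.7 uM level (84.8%, against 48.8% of 8500 measured genes), with a median of 0.24. Past 2-fold 0 members were higher and 0 lower, against 0.812% and 1.73% of all genes. Scaled to the poly(A) controls 2 members (4.35%) were higher and 0 lower, against 2.58% and 0.585%. By the probe set yardstick, 0.58 in this comparison, 3 members (6.52%) were higher and 0 lower, against 3.78% and 6.38% of all genes. Most of the 39 upward steps were therefore within it. Wdr75 (1.76-fold) and Gnl3 (1.75-fold) led upward, and Nop10 was 1.34-fold lower at 5 uM.

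Differences between KHS101 and RA/forskolin use again the RA/forskolin array of the first comparison. At 5 uM 21 of 46 members were higher past 2-fold (45.7%) and 0 lower, against 8.94% and 10.2% of 8606 measured genes, and the median was 0.97; 43 were higher by any amount, against 49.9%. Scaled to the poly(A) controls 27 members (58.7%) were higher and 0 lower, against 12.1% and 7.85%. At 1.7 uM 14 were higher (30.4%) and 0 lower, against 5.93% and 5.39%, with a median of 0.71; 43 were higher by any amount, against 50.2%. With that scaling 8 (17.4%) were higher and 0 lower, against 4.32% and 7.13%. Past the 95th percentile of probe set disagreement 27 and 28 members were higher, against 12.1% and 12.8% of all genes. Shq1 had the widest gap, 5.87-fold at 5 uM and 5.43-fold at 1.7 uM, followed at 5 uM by Wdr75 (3.99-fold), Polr1b (3.88-fold), Rrp9 (3.66-fold), Gnl3 (3.56-fold) and Pop1 (3.51-fold). Nop10, Pop4 and Pop7 were the members that lay lower with KHS101 than with RA/forskolin, by 1.49-fold, 1.18-fold and 1.02-fold at 5 uM.

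Other genes of the pathway were counted from lists of related factors. Together 6 lists of further assembly factors, polymerase partners, snoRNP partners and exosome subunits held 156 measured genes that are not members. With RA/forskolin 141 of them (90.4%) were below DMSO, against 52.5% of all measured genes, with a median of -0.52. Past 2-fold 10 (6.41%) were lower and 0 higher there, against 3.15% and 4.34% of all genes. With KHS101 5 uM 113 (72.4%) were above DMSO, against 50.2%, with a median of 0.26, but past 2-fold 3 (1.92%) were higher and 1 (0.641%) lower, less than the 6.16% and 8.1% of all genes. With 1.7 uM 70 (44.9%) were above and 86 below (median -0.03), and 0 were higher and 1 lower past 2-fold, against 4.36% and 4.27%.

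Among 43 further small subunit factors, 42 were lower with RA/forskolin (median -0.65); Nol6 was 2.37-fold and Utp18 2.07-fold lower. The kinase Riok3 was the exception, and with KHS101 5 uM it was 2.36-fold higher, as was Aatf at 2.26-fold. Of 47 further large subunit factors 43 were lower with RA/forskolin (median -0.66). Sdad1 was 3.20-fold, Nle1 2.56-fold and Mrto4 2.31-fold lower there, and Mdn1, a giant ATPase that strips factors from the large subunit, was 2.73-fold higher with KHS101 5 uM.

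The 16 measured partners of RNA polymerase I had a median of -0.47 with RA/forskolin. Past 2-fold 2 (12.5%) were lower there and 0 higher, against 3.15% and 4.34% of all measured genes. With KHS101 1 (6.25%) was lower at 5 uM, against 8.1%, and 1 (6.25%, Polr1g) at 1.7 uM, against 4.27%. Polr1g, a subunit of the enzyme, measured 7.51 in DMSO, 6.47 with KHS101 1.7 uM, 6.74 with KHS101 5 uM and 6.27 with RA/forskolin, so it was below DMSO with every treatment. Taf1d was 2.03-fold lower with RA/forskolin, and Polr2l, shared by the 3 nuclear polymerases, was 2.17-fold lower with KHS101 5 uM. Of 22 genes of RNA polymerase III and its factors 14 (63.6%) were lower with RA/forskolin, near the 52.5% of all measured genes (median -0.18), and Polr3g, a subunit known from stem cells, was 3.30-fold lower; 0 of 22 passed 2-fold with either KHS101 concentration, against 6.16% higher and 8.1% lower of all genes at 5 uM and 4.36% and 4.27% at 1.7 uM. All 16 snoRNP and RNase P partners and all 12 exosome genes were below DMSO with RA/forskolin, with medians of -0.47 and -0.42. Past 2-fold 0 of them were lower and 0 higher there, against 3.15% and 4.34% of all genes.

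Cytosolic ribosomal proteins, the cargo of this pathway, were counted apart from its factors. Of 77 listed, 40 had a probe set of their own and 38 were measured. With RA/forskolin 33 (86.8%) were below DMSO, against 52.5% of all measured genes (median -0.11). With KHS101 at 5 and 1.7 uM 35 (92.1%) and 36 (94.7%) were above it, against 50.2% and 49% (medians 0.17 and 0.14). Past 2-fold there were 0 in the 3 comparisons, against 3.15% to 8.1% of all genes per direction. Both KHS101 medians are smaller than the shift that scaling to the poly(A) controls brings, so their sign depends on it.

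In the Myc network, Myc measured 12.02 in DMSO, 11.73 with KHS101 1.7 uM, 12.10 with KHS101 5 uM and 10.38 with RA/forskolin, where it was 3.12-fold lower. Mxd4, which pairs with Max and represses E-box genes, was 2.23-fold higher there. With KHS101 5 uM Mycl was 2.99-fold lower and Mxi1 2.21-fold lower. Among the 4 measured genes linked to the 5S particle and p53 was Mdm2, the ligase that free Rpl5 and Rpl11 bind. It was 1.60-fold higher with KHS101 5 uM, which is within 2-fold and within the probe set yardstick of 0.73. Cdkn1a, a p53 target and cell-cycle inhibitor, measured 7.33 in DMSO, 10.33 with KHS101 1.7 uM, 10.87 with KHS101 5 uM and 7.69 with RA/forskolin.

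Proliferation genes did not run parallel to the members. The 10 genes, Mki67, Pcna and Top2a among them, were all below DMSO on each treated array, with medians of -1.42 with KHS101 5 uM, -1.09 with 1.7 uM and -0.65 with RA/forskolin. Their summed linear level was 76614 in DMSO, 50156 with RA/forskolin, 40733 with KHS101 1.7 uM and 28086 with 5 uM. Past 2-fold 9 of the 10 (90.0%) were lower with KHS101 5 uM and 6 (60.0%) with 1.7 uM, against 8.1% and 4.27% of all genes. With RA/forskolin 0 were lower past 2-fold, against 3.15%. The members' medians in the same comparisons were 0.30, 0.03 and -0.78, so the array with the lowest proliferation genes was the one with the highest members. The part of proliferation, and of the progenitor, neuron, astrocyte and oligodendrocyte markers given above, in the members' differences was not tested.

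**Figure D5:**
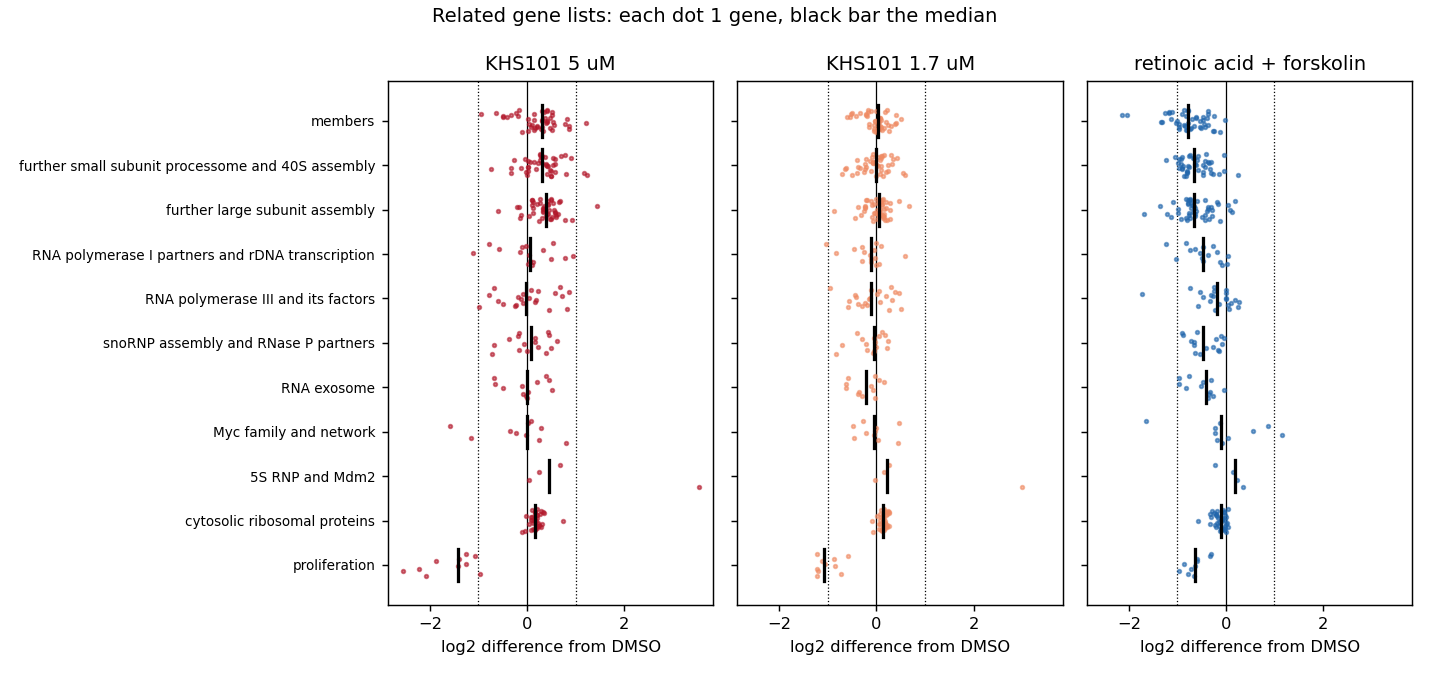
Log2 difference from DMSO (x axis) of each measured gene (dots) in the members and in 10 related lists (rows), with the median as a black bar, 1 panel per treatment; dotted lines mark 2-fold. With RA/forskolin the assembly lists lie left of 0 (medians -0.65 and -0.66) and the ribosomal proteins close to it (-0.11); with KHS101 5 uM the proliferation genes lie at -1.42 while the members lie at 0.30.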

How the data were processed

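The deposited table holds log2 expression values for 31099 probe sets on 4 arrays, 1 per group. GCRMA and R 2.6.2 are named, per the submitters' processing notes, with no role or order; the sources used here do not give a genome build. The scale was read from the values themselves (array medians 3.67 to 3.76, highest 16.1). At equal ranks the columns differed by at most 0.19, so a general rise or fall cannot be detected in them. Probe sets with exactly 1 symbol in the platform annotation (20826) were kept; those with several (436), unnamed ones (9780) and 57 controls entered no gene count. Each gene was represented by its probe set of highest mean, values under 5 were raised to that floor, and a gene was measured if either array compared was above it. Calls used 2-fold; no test was run. The members and lists were chosen with earlier results of these data known. Values on every array are given for members past 2-fold from DMSO, for Ncl, Fbl, Dkc1, Polr1a, Polr1b, Rpl5 and Rpl11, and for the largest and smallest differences of each role group with RA/forskolin and KHS101 5 uM. Of each related list of pathway genes the largest differences past 2-fold are named, at most 3 per direction. The proliferation list is given by its counts, medians and sums. Calculations used Python 3.11.15, pandas 2.3.3 and numpy 2.4.6. The calling code was run on simulated copies of the DMSO array with little noise and shifts larger than 2-fold. That run checks the code and does not show how reliable a call from 1 array per group is. Alternatives changed the floor, the probe set, the scaling and the fold.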

Additional observations from a re-analysis of the deposited data

Results flagged for a closer look

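The control probe set for 5S ribosomal RNA, which no gene comparison uses, gave a signal above the floor with KHS101 and not in DMSO. It lay 2.89 above the floor on the log2 scale at 5 uM and 0.27 above it at 1.7 uM, while DMSO and RA/forskolin were under the floor; 1 array stands behind each value, and the difference was not tested.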

How the results depend on the processing

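The members' median differences moved by less than the typical disagreement of probe sets with a floor of 4 or 6, without a floor, with the mean of all probe sets and after quantile normalization, and their counts past 2-fold stayed within 1.5 times under these settings. Scaled to the poly(A) controls, an alternative chosen after the data were seen, the medians against DMSO were 0.095 for KHS101 5 uM, -0.52 for 1.7 uM and -1.16 for RA/forskolin, with 1, 4 and 29 members lower past 2-fold; 5 uM against 1.7 uM gave 0.58 with 2 higher, and 1.7 uM against RA/forskolin 0.55 with 8 higher. At 1.5-fold, KHS101 5 uM had 5 members higher and 2 lower (10.9% and 4.35%, against 14.6% and 16.1% of all genes), 1.7 uM 1 lower (2.17% against 10.6%), RA/forskolin 30 lower (65.2% against 12.2%), the dose step 2 higher (4.35% against 3.62%), and KHS101 against RA/forskolin 36 and 30 higher at 5 and 1.7 uM (78.3% against 18.7%, and 65.2% against 13.8%). At 3-fold these were 0 higher for 5 uM (against 2.55% of all genes), 2 lower for RA/forskolin (4.35% against 0.398%), and 10 and 3 higher (21.7% against 3.53%, and 6.52% against 1.97%). For the 12 single member differences past 2-fold, 55 of 72 alternative values moved by less than the probe set disagreement, 17 by more and 0 reversed. With the mean of all probe sets, those under the floor included, Nolc1 and Tcof1 came to -0.80 and -0.41. No paired analysis was possible because each group has 1 array. Shq1 and Pop1 lay less than 1 above the floor with RA/forskolin, and with a floor of 6 the difference of Shq1 was -1.82. The number of arrays limits every value.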
